A study of Mus musculus with 22 samples.

Results

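The clustered protocadherins made up 55 of the 30170 genes in a count table from C3H 10T1/2 cells, a mouse mesenchymal stem cell line, that carried wild-type or mutant forms of the DNA methyltransferase DNMT3A. They were taken as every gene symbol made of Pcdha, Pcdhac, Pcdhb, Pcdhga, Pcdhgb or Pcdhgc and a number. The rule itself uses no measured value, but it was chosen with earlier results of these data known. By this rule there were 14 alpha, 22 beta and 19 gamma members, all on chromosome 18. RefSeq (GRCm38.p6), used here for names and gene order, lists 58 such symbols, of which Pcdhga9, Pcdhga12 and Pcdhgc5 were not analysed here.

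RNA-seq was performed on 22 libraries in 11 conditions of 2 libraries each, from lines made to study DNMT3A1, the long form of the enzyme. Cells labelled DNMT3A WT and DNMT3A W330R were sampled undifferentiated, with no treatment, and at days 2, 4 and 6 of adipocyte differentiation. Cells labelled W330R-R181E, which carry both changes, were sampled at days 2, 4 and 6 only. All treated cells received isobutylmethylxanthine, dexamethasone, insulin and troglitazone in serum-containing medium for 2 days and insulin alone after that. W330R lies in the PWWP domain, a part of DNMT3A that binds methylated histone H3. The column headers of the count table write R181A where the labels write R181E, and the identity of this residue change was not tested. The labels do not say whether the replicates were separate cultures or how many lines stood behind a genotype, so the p-values measure only the spread between these libraries. In bulk RNA, fewer cells that express a gene and less of its RNA per cell cannot be told apart.

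Clustered protocadherins are cadherin-like adhesion proteins of the cell surface that are best known from neurons, where each cell uses its own subset of isoforms and recognizes matching isoforms on other cells. In the alpha and gamma clusters a variable first exon with its own promoter is spliced to constant exons shared by the whole cluster, while each beta gene is a single exon. Promoter choice depends on CTCF, cohesin and DNA methylation, and methylated variable promoters are silent. The C-type isoforms (Pcdhac1, Pcdhac2, Pcdhgc3, Pcdhgc4 and Pcdhgc5) stand at the ends of the alpha and gamma clusters and are not chosen at random in neurons.

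Total counts ran from 8859501 to 47453908 per library, with a median of 19355792, so that 3 counts corresponded to 0.0583 to 0.347 CPM, which are counts divided by library size after scaling by the trimmed mean of M-values (TMM). The Dnmt3a level was 347 and 345 CPM in undifferentiated WT and 326 and 316 CPM in undifferentiated W330R libraries. At days 2 to 6 it was 105 to 322 CPM in WT, 87.4 to 142 in W330R and 68.5 to 148 in W330R-R181E libraries. Such a count cannot check a point mutation. The replicates of the undifferentiated cells lay closer to each other (chi-square per degree of freedom of 3.10 and 3.40) than those of the later days (29.3 to 103). The columns of the undifferentiated libraries also follow another naming pattern, so a separate batch and the change from undifferentiated cells to day 2 cannot be told apart. Summed mesenchymal markers (8 of 8 tested) ran from 2904 to 21455 CPM. Summed neuronal markers reached 0.443 to 11.1 CPM, 3 of the 7 passed the filter on low counts, and Rbfox3 and Elavl4 were never above 3 counts. Summed astrocyte and oligodendrocyte, epithelial, endothelial and blood markers reached at most 14.9, 5.67, 16.1 and 16.5 CPM in any library.

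The expressed repertoire lay almost wholly in the beta and gamma clusters. The alpha cluster was close to silent in the deposited counts, with the limit on read assignment given below. Its 14 members together gave 113 counts in 22 libraries, 0.0259% of all clustered protocadherin counts, and 0 to 18 counts in any library. Its highest members by mean level were Pcdha9, Pcdha11, Pcdha12 and Pcdha4, at 0.0744, 0.0415, 0.0228 and 0.0177 CPM. None of the 14 passed the filter on low counts, so no difference between conditions could be detected for them at this depth.

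**Figure D1:**
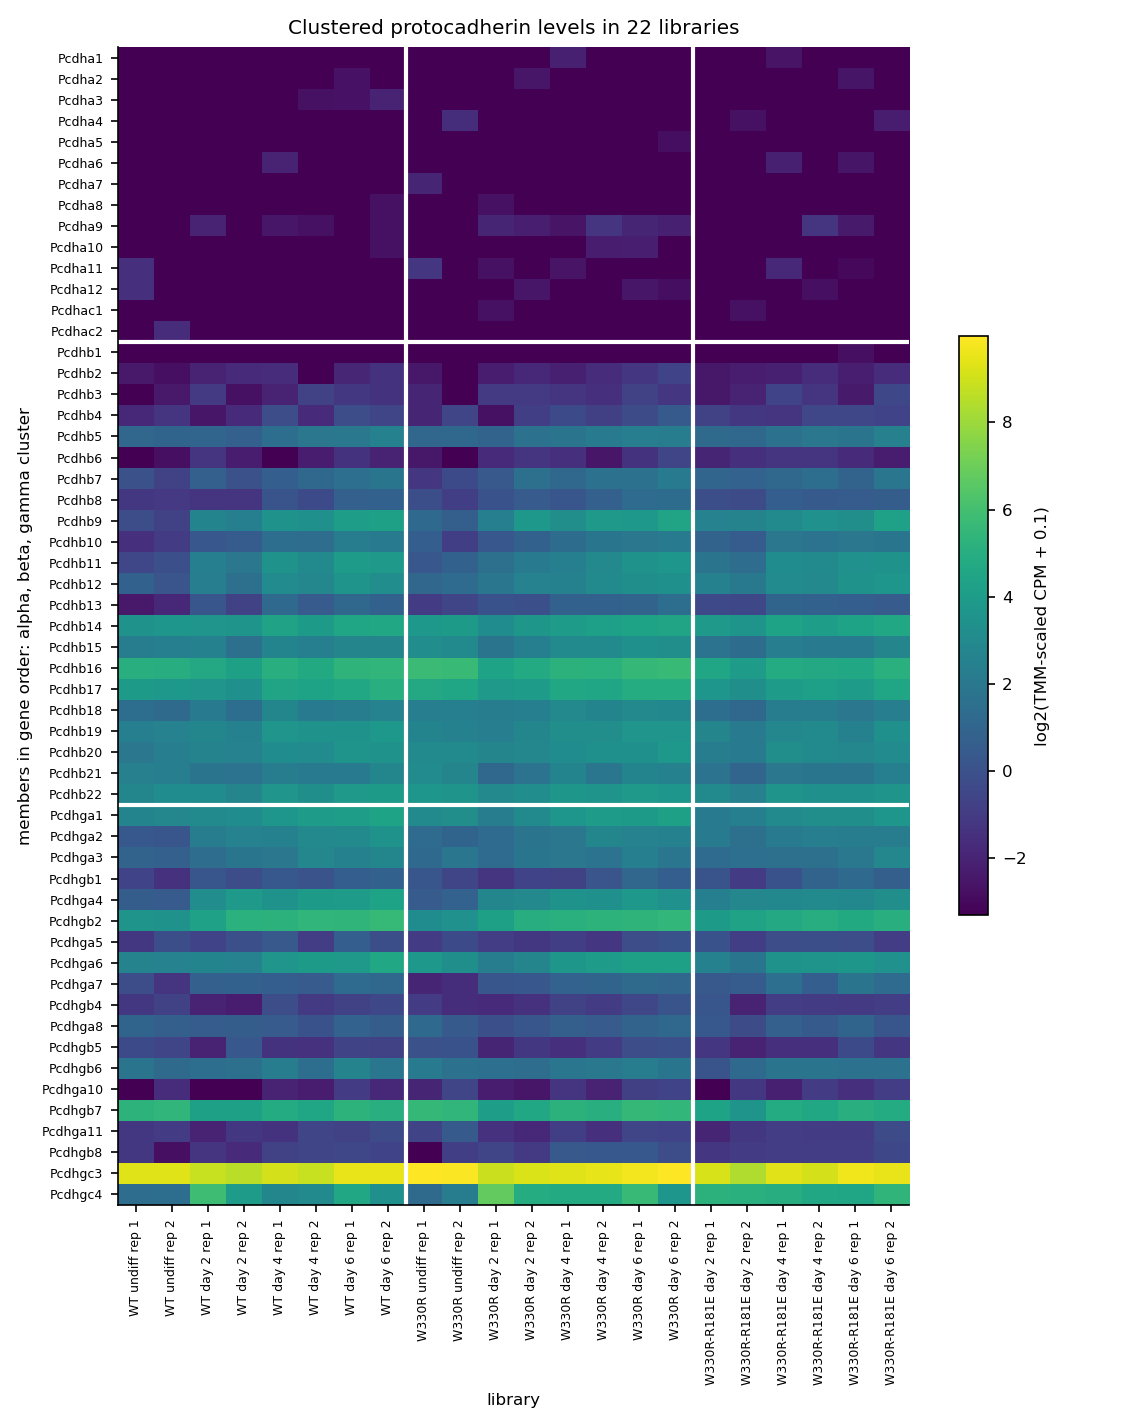
Heat map of the TMM-scaled level, as log2(CPM + 0.1), of the 55 members (rows, in gene order, with white lines between the alpha, beta and gamma clusters) in the 22 libraries (columns, with white lines between genotypes). Pcdhgc3 is the brightest row in every library, and the 14 alpha rows are dark.

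Of the 22 beta members 19 were tested, and all 19 gamma members were. The other 3 beta genes, Pcdhb1, Pcdhb2 and Pcdhb6, were too low. By mean level over the 22 libraries, 10 members were at 10 CPM or more, 20 between 1 and 10 CPM and 25 under 1 CPM. The lowest tested members were Pcdhga10 and Pcdhb3, at means of 0.228 and 0.269 CPM.

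Pcdhgc3, a C-type isoform known to bind Axin1 and dampen Wnt signalling, dominated. It supplied 303755 of 435554 member counts, 69.7%, with a mean of 663 CPM and a range of 338 to 1007 CPM. The next members by mean level were Pcdhb16 (33.1 CPM), Pcdhgb7 (30.9 CPM), Pcdhgb2 (28.5 CPM), Pcdhgc4 (26.7 CPM), Pcdhb17 (19.8 CPM), Pcdhb14 (16.7 CPM) and, in the beta cluster, Pcdhb22 (10.5 CPM). Per kilobase of the longest coding transcript in GENCODE M21, the mean level was 142 CPM for Pcdhgc3, 6.57 for Pcdhgb7, 6.33 for Pcdhb16, 6.11 for Pcdhgb2, 5.31 for Pcdhgc4 and 4.24 for Pcdhb17, so Pcdhgc3 stayed far above the others per length and Pcdhgb7 and Pcdhb16 changed places.

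The share of Pcdhgc3 in the member counts differed between undifferentiated and later libraries. It was 78.6 ± 0.205% (SD, n = 2) in undifferentiated WT and 80.0 ± 0.0424% in undifferentiated W330R cells, and 62.0 to 74.9% in the 18 libraries of days 2 to 6. The beta share was 11.6 to 12.3% in the 4 undifferentiated libraries and 12.3 to 20.02% later. The other gamma members gave 7.64 to 9.77% of the counts in the undifferentiated libraries and 12.2 to 23.1% later.

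**Figure D2:**
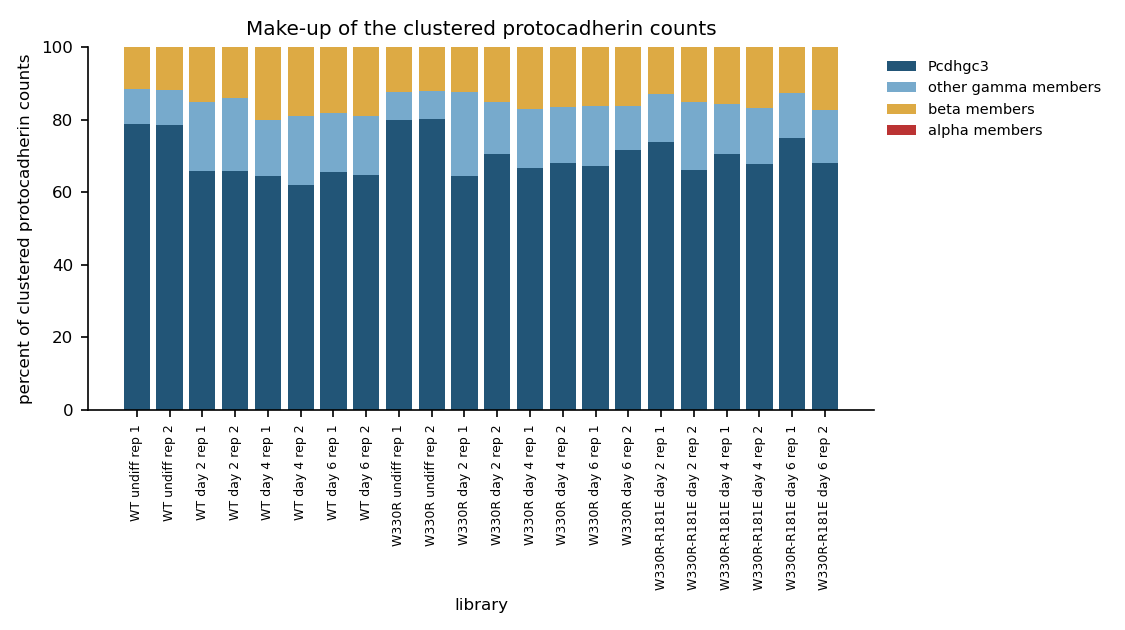
Stacked bars of the percent of clustered protocadherin counts in each library (x axis) given by Pcdhgc3, the other gamma members, the beta members and the alpha members. Pcdhgc3 takes 78.5 to 80.1% in the 4 undifferentiated libraries and 62.0 to 74.9% in the others, and the alpha share is too small to see.

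Reads cannot always be assigned within the alpha and gamma clusters. Of all stretches of 50 bases in a member's longest coding transcript (GENCODE M21), 41.65 to 65.9% also occurred in another gene for the gamma members and 0 to 11.99% for the beta members, with medians of 45.3% and 4.46%. For the 13 alpha members with such a transcript it was 48.2 to 97.5%, with a median of 61.2%. Whether alpha reads were assigned to other genes was not tested. How the authors' counting divided reads from the shared constant exons is not given in the sources used here. Values of single alpha and gamma members are therefore less certain than those of beta members. The gamma sums also depend on it, since reads could have gone to gamma genes that were not analysed here, and the sums over gamma A genes depend on it directly.

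W330R was compared with WT over the 4 stages both genotypes have, with each stage weighted equally. Of the 38 tested members, 7 were higher in W330R and 0 were lower, where 11.2% of all 14520 tested genes were called higher and 11.8% lower. They were 6 beta genes, Pcdhb8, Pcdhb15, Pcdhb16, Pcdhb17, Pcdhb18 and Pcdhb20, and the C-type gene Pcdhgc3. The median log2 difference was 0.33 for the tested beta members, 0.04 for the tested gamma members and 0.01 for all genes. Part of the tested members passed the filter through the conditions where they are high, so these medians are descriptions.

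Among the called members the adhesion gene Pcdhb8 differed most in size. Its level in WT libraries was 0.352 and 0.356 CPM in undifferentiated cells, 0.302 and 0.295 at day 2, 1.01 and 0.700 at day 4 and 1.59 and 1.65 at day 6. In W330R libraries it was 0.817 and 0.463, 0.909 and 1.33, 1.08 and 1.59, and 2.37 and 2.50 CPM at the same stages. The W330R libraries lay above the WT libraries at all 4 stages without overlap, and the log2 difference was 1.00 ± 0.19 (SE, adjusted p = 0.00215). The early levels rest on few reads. Undifferentiated libraries held 4 and 8 counts in WT and 10 and 4 in W330R, and the WT day 2 libraries 4 and 6. Pcdhb8 was also the only member called at a single stage, at day 2, with a log2 difference of 1.90 ± 0.39 (adjusted p = 0.0182), where 3.06% of all genes were called, 1.88% higher and 1.18% lower. That day 2 call was lost without WT day 2 replicate 1, WT day 2 replicate 2 or W330R day 2 replicate 2.

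Pcdhgc3 showed the same order of genotypes at a far higher level. WT libraries gave 647 and 644 CPM in undifferentiated cells, 468 and 392 at day 2, 546 and 467 at day 4 and 735 and 741 at day 6. W330R libraries gave 989 and 952, 484 and 598, 641 and 714, and 868 and 1007 CPM. The 2 genotypes did not overlap at any of the 4 stages, and the log2 difference was 0.42 ± 0.10 (SE, adjusted p = 0.00933). Its neighbour Pcdhgc4, known for a role in the survival of interneurons, varied far more between replicates. WT libraries gave 56.9 and 16.5 CPM and W330R libraries 109 and 30.4 CPM at day 2, and its log2 difference of 1.03 ± 0.38 over the 4 stages had an adjusted p of 0.0639.

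The remaining called genes were neighbours or near neighbours in the downstream part of the beta cluster. Pcdhb18 was at 2.73 and 2.32 CPM in undifferentiated WT cells and at 4.98 and 5.20 in undifferentiated W330R cells, then at 4.46 and 2.66 against 4.81 and 5.33 at day 2, 6.86 and 4.58 against 7.51 and 6.30 at day 4, and 4.76 and 5.88 against 7.66 and 7.35 at day 6. The genotypes overlapped only at day 4 (log2 difference 0.58 ± 0.14, adjusted p = 0.0096). Pcdhb17 gave 15.3 and 13.6 CPM against 26.0 and 22.2 before differentiation, and 25.3 and 32.0 against 30.1 and 30.5 at day 6, where the groups overlapped. Its log2 difference was 0.36 ± 0.09 (adjusted p = 0.0146). Pcdhb16 went from 33.5 and 31.4 CPM in undifferentiated WT to 53.1 and 50.5 in undifferentiated W330R cells, and its averaged log2 difference was 0.33 ± 0.11 (adjusted p = 0.0385). For Pcdhb15 and Pcdhb20 the averaged log2 differences were 0.47 ± 0.15 and 0.30 ± 0.10 (adjusted p = 0.0412 and 0.0494). The calls of Pcdhb15, Pcdhb16 and Pcdhb20 were close to the threshold and were lost in 13, 13 and 14 of the 16 fits that left out a library, and that of Pcdhb20 also in 5 of 7 other settings, RLE scaling among them.

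**Figure D3:**
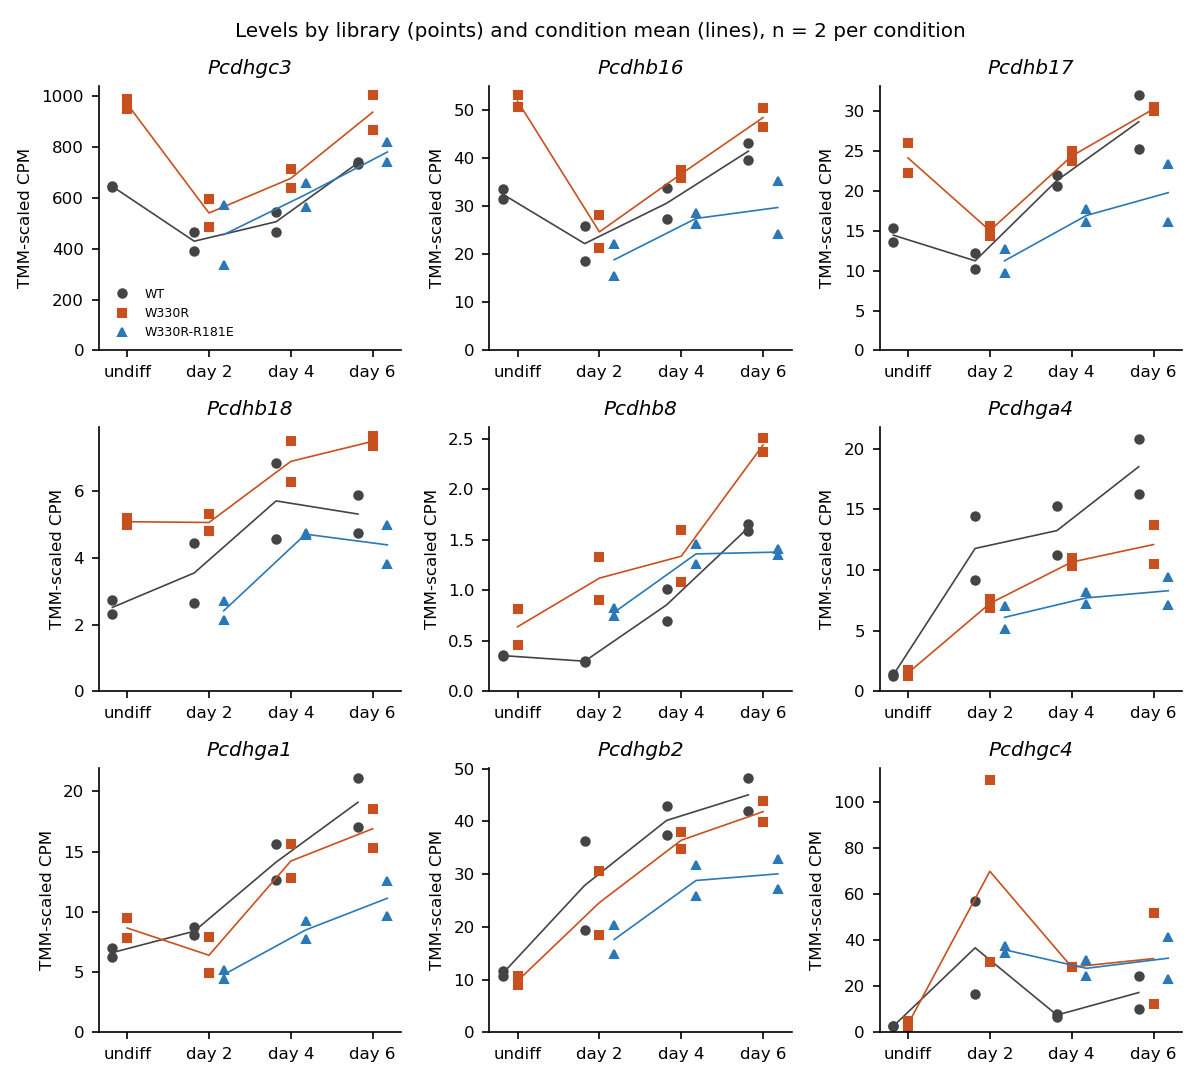
TMM-scaled CPM (y axes, from 0) of 9 members by stage (x axes), with a point for each library, a line through the condition means (n = 2) and a colour and symbol for each genotype. In undifferentiated cells the W330R points of Pcdhgc3, Pcdhb16, Pcdhb17 and Pcdhb18 lie above the WT points, and the W330R-R181E points of Pcdhga1 and Pcdhga4 lie below the WT points at days 2, 4 and 6.

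The ratios of the beta, gamma and gamma A sums were highest before differentiation, while those of the gamma B genes were 1.06 there and 0.967, 1.07 and 1.09 at days 2, 4 and 6. In undifferentiated cells the summed beta level was 95.8 ± 0.419 CPM in WT and 148 ± 6.65 CPM in W330R (SD, n = 2), a ratio of 1.54, and the summed gamma level was 724 ± 0.741 and 1064 ± 26.8 CPM, a ratio of 1.47. At days 2, 4 and 6 the beta ratios were 1.15, 1.08 and 1.04, and the libraries of the 2 genotypes overlapped at each of these days. The gamma ratios were 1.24, 1.30 and 1.22 without overlap. Most of the gamma counts came from Pcdhgc3. Without Pcdhgc3 the gamma ratio was 1.19 in undifferentiated cells and 1.16, 1.15 and 1.04 at days 2, 4 and 6, with overlap at days 2 and 6. The gamma A genes alone went from a ratio of 1.53 in undifferentiated cells to 0.724 at day 2, 0.913 at day 4, where the libraries overlapped and plain library totals gave 1.01, and 0.810 at day 6. In undifferentiated cells 33 of the 38 tested members had a positive difference, as did 6906 of all 14520 genes. The median was 0.61 on the log2 scale for the members against 0.00 for all genes.

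None of the single genes was called in undifferentiated cells by edgeR's quasi-likelihood test on all 22 libraries (0 members, where 1.75% of all genes were called, 0.792% higher and 0.957% lower), although 13 of the 38 had an unadjusted p under 0.05, all 13 of them higher. Over all genes 1793 of 14520 had an unadjusted p under 0.05, 810 higher and 983 lower. That fit uses a spread common to all stages, and the undifferentiated replicates were the closest by the chi-square given above. Whether this accounts for the other counts that follow was not tested. The same test on the 4 undifferentiated libraries called 9 of the 25 members that it tested, all higher (Pcdhb9, Pcdhb15, Pcdhb16, Pcdhb17, Pcdhb18, Pcdhb20, Pcdhb22, Pcdhga6 and Pcdhgc3). Of all genes in that fit 35.3% were called, 17.2% higher and 18% lower. DESeq2 on all libraries called 4 (Pcdhb17, Pcdhb18, Pcdhb20 and Pcdhga6), where 3.64% of all genes were called, 1.79% higher and 1.85% lower. At day 4 and at day 6 edgeR called 0 members, where 6.14% of all genes were called at day 4 (2.73% higher, 3.4% lower) and 7.54% at day 6 (2.31% higher, 5.23% lower). An unadjusted p under 0.05 was found for 1 and 2 members there, and for 3354 and 3258 of all 14520 genes. DESeq2 called 1 member at day 4, Pcdhgc4, and 0 at day 6.

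Over days 2 to 6 alone, an average taken after the data were seen because the undifferentiated columns are named differently, 3 members were higher in W330R (Pcdhb8, Pcdhgc3 and Pcdhgc4) and 2 were lower (Pcdhga2 and Pcdhga4), where 14.3% of all genes were called higher and 14.8% lower. The log2 differences were 1.05 ± 0.21 for Pcdhb8, 0.37 ± 0.12 for Pcdhgc3, 1.25 ± 0.41 for Pcdhgc4, -0.64 ± 0.18 for Pcdhga2 and -0.54 ± 0.15 for Pcdhga4. Pcdhb15, Pcdhb16, Pcdhb17, Pcdhb18 and Pcdhb20 lost their calls in this average (adjusted p from 0.0574 to 0.454) while their differences stayed positive. The count of 7 over the 4 stages fell to 4 without WT undifferentiated replicate 1, without replicate 2 of WT at day 2, day 4 or day 6, or without either W330R library of day 4.

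W330R-R181E was compared with W330R over days 2, 4 and 6. Of the 38 tested members 7 were lower in W330R-R181E and 0 were higher, where 9.36% of all genes were called lower and 7.87% higher. The median log2 difference was -0.33 for the members and 0.01 for all genes. This comparison shares its W330R libraries with the one above, so the 2 sets of values are given side by side and are not independent of each other.

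In the beta cluster the lower genes were Pcdhb15, Pcdhb16, Pcdhb17, Pcdhb18 and Pcdhb20. For Pcdhb18 the W330R-R181E libraries gave 2.71 and 2.13 CPM at day 2, 4.74 and 4.70 at day 4 and 3.81 and 4.98 at day 6, below the W330R libraries at all 3 days (log2 difference -0.80 ± 0.16, adjusted p = 0.00394). Pcdhb17 gave 12.7 and 9.76, 16.05 and 17.8, and 16.2 and 23.4 CPM, also below W330R at all 3 days (-0.52 ± 0.11, adjusted p = 0.0048). Pcdhb15 gave 3.28 and 2.53, 4.98 and 4.61, and 4.35 and 6.4997 CPM, again without overlap with W330R (-0.73 ± 0.18, adjusted p = 0.0118). The libraries of these 2 genotypes were thus separated at every day sampled for these 3 genes. They are the libraries that gave the calls, so the separation is a description and no further test. For Pcdhb16 and Pcdhb20 the log2 differences were -0.51 ± 0.12 and -0.45 ± 0.12 (adjusted p = 0.0119 and 0.0176), and the libraries were separated at 2 of the 3 days for each. Their W330R-R181E libraries gave 22.2 and 15.5, 28.6 and 26.2, and 24.2 and 35.2 CPM for Pcdhb16 and 4.68 and 4.26, 9.30 and 7.78, and 7.07 and 8.45 CPM for Pcdhb20.

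In the gamma cluster the lower genes were Pcdhga1, the first gene of the cluster, and Pcdhgb7. Pcdhga1 gave 4.43 and 5.15, 7.72 and 9.26, and 9.69 and 12.6 CPM in W330R-R181E, against 4.92 and 7.88, 12.8 and 15.6, and 15.3 and 18.5 CPM in W330R (log2 difference -0.59 ± 0.14, adjusted p = 0.01). Pcdhgb7 gave 20.8 and 11.8, 29.0 and 25.1, and 32.2 and 28.8 CPM against 17.2 and 24.4, 36.9 and 32.9, and 47.002 and 44.9 CPM (-0.44 ± 0.13, adjusted p = 0.029). Both overlapped at day 2 and were separated at days 4 and 6. For Pcdhgc3 the difference was -0.22 ± 0.12 (adjusted p = 0.232), and for Pcdhb8 it did not pass the test either.

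W330R-R181E was also set against WT over the same days. Of the 38 tested members 4 were lower and 0 were higher, where 9.57% of all genes were called, 5.12% lower and 4.46% higher. They were Pcdhga1, Pcdhga2, Pcdhga4 and Pcdhgb2, which stand at places 1, 2, 5 and 6 of the gamma cluster in RefSeq order. The genes between them were not called, with log2 differences of -0.46 ± 0.21 for Pcdhga3 and 0.06 ± 0.31 for Pcdhgb1. The median over the 38 members was -0.19, and 0 of the 19 tested beta members were called (7 at an unadjusted p under 0.05, and Pcdhb19 by DESeq2). Over all genes 3959 of 14520 had an unadjusted p under 0.05, 1949 higher and 2010 lower.

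Among the called members Pcdhga4 showed the greatest difference. WT libraries gave 9.14 and 14.4 CPM at day 2, 11.3 and 15.2 at day 4 and 16.2 and 20.8 at day 6, W330R libraries 6.84 and 7.65, 11.006 and 10.3, and 13.7 and 10.5 CPM, and W330R-R181E libraries 5.17 and 7.03, 7.23 and 8.18, and 7.16 and 9.42 CPM. W330R-R181E lay below WT at all 3 days (log2 difference -0.97 ± 0.15, adjusted p = 0.00306), with W330R between them in mean at each day. Pcdhga1 was at 8.08 and 8.71, 12.6 and 15.6, and 17.1 and 21.1 CPM in WT, above W330R-R181E at all 3 days (-0.77 ± 0.14, adjusted p = 0.00598). Pcdhga2 was at 4.91 and 5.76, 5.56 and 7.64, and 8.22 and 10.9 CPM in WT and at 4.51 and 2.87, 4.32 and 5.09, and 4.79 and 4.87 CPM in W330R-R181E (-0.67 ± 0.18, adjusted p = 0.0354). Pcdhgb2 was at 19.4 and 36.4, 37.5 and 42.9, and 41.9 and 48.2 CPM against 14.9 and 20.4, 26.0 and 31.7, and 27.2 and 32.9 CPM, with overlap at day 2 (-0.58 ± 0.16, adjusted p = 0.0351). Summed over the gamma A genes, W330R-R181E stood at 0.650, 0.704 and 0.604 times the WT level at days 2, 4 and 6, without overlap. The count of 4 fell to 2 without replicate 2 of WT at day 2, day 4 or day 6, or without replicate 1 of W330R-R181E at day 4 or day 6.

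**Figure D4:**
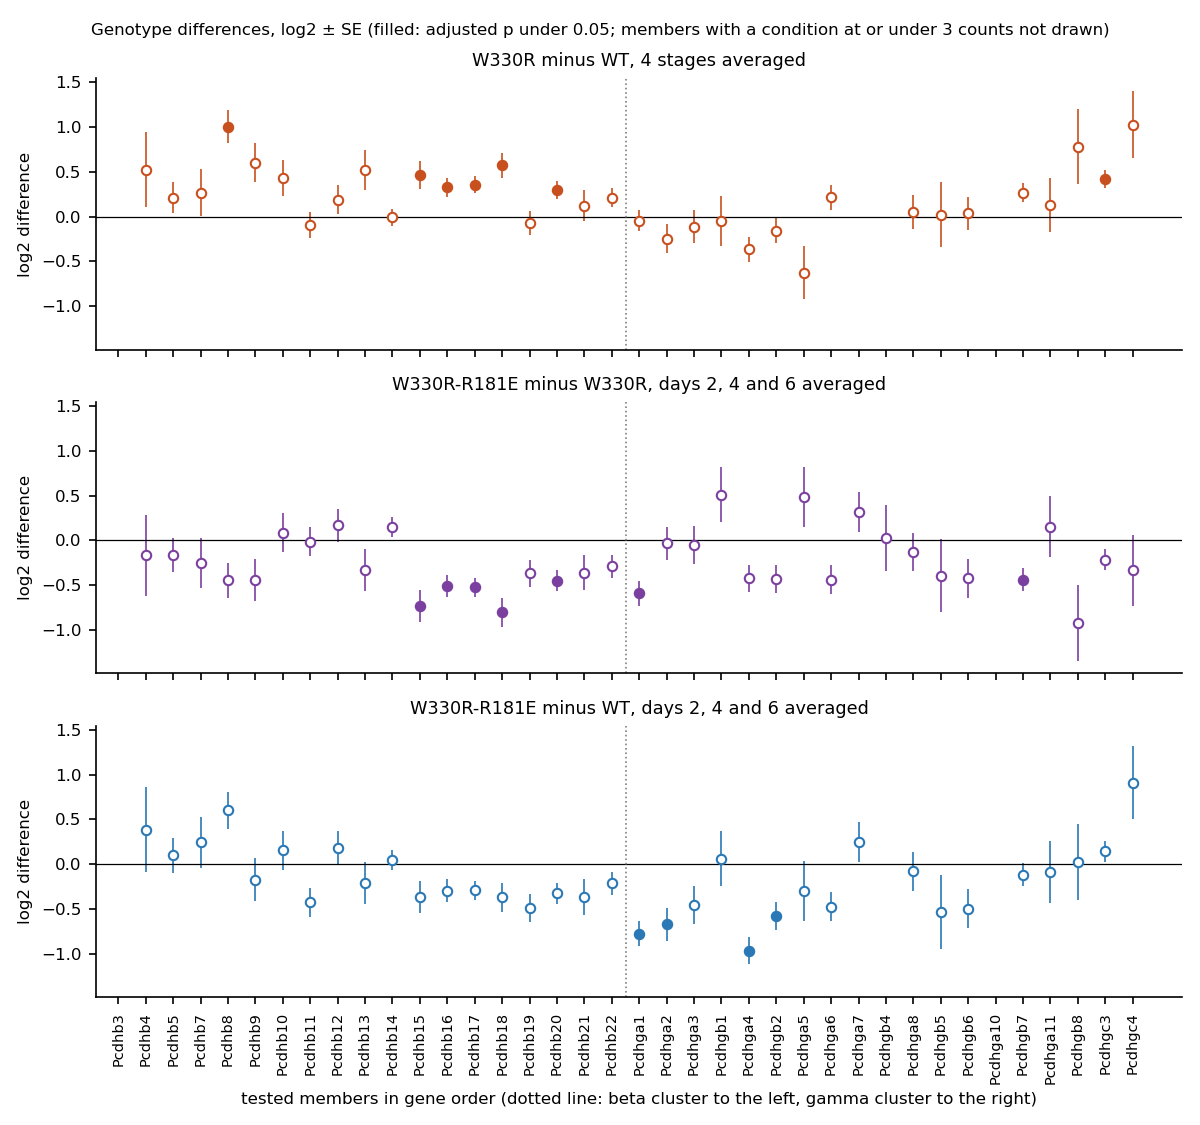
Log2 differences ± SE (y axes) of the tested members in gene order (x axis) for W330R minus WT, W330R-R181E minus W330R and W330R-R181E minus WT. Filled points passed an adjusted p of 0.05, and members with a condition at or under 3 counts in each library are not drawn: 7 filled points lie above 0 in the first panel, and 7 and 4 lie below 0 in the middle and lower panels.

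Marker genes of the cell states moved with genotype and time as well. Summed adipocyte markers (7 of 7 tested) were at 51.5 to 59.6 CPM in the 4 undifferentiated libraries. At day 6 they reached 4667 to 9216 CPM in WT, 1425 to 1624 in W330R and 1696 to 3020 in W330R-R181E libraries. Of the 8 mesenchymal markers 4 were higher in W330R than in WT over the 4 stages (Pdgfra, Pdgfrb, Prrx1 and Thy1) and 6 were lower in W330R-R181E than in W330R. Over all genes 11.2% were called higher in the first comparison and 9.36% lower in the second. Summed mesenchymal markers at day 6 were 8148 to 12235 CPM in WT, 11664 to 14338 in W330R and 9760 to 13327 in W330R-R181E. The part of these states in the protocadherin differences was not tested.

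From day 2 to day 6 every member that passed the test rose, in each of the 3 genotypes. In WT 18 members were higher at day 6 and 0 were lower, where 26.6% of all genes were called, 14.8% higher and 11.8% lower. In W330R 20 were higher and 0 lower (13.6% and 11.3% of all genes), and in W330R-R181E 15 were higher and 0 lower (12.9% and 10.3%). The medians over the 38 tested members were 0.98, 1.03 and 0.81 on the log2 scale, against 0.02, 0.01 and -0.00 for all genes. The day 6 libraries lay above both day 2 libraries for 33, 36 and 29 of the 38 members, where the same was true of 30.5%, 35.3% and 28% of all genes.

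These comparisons share no library, and 12 members were called higher in all 3 genotypes, which is 66.7% of the WT list, 60% of the W330R list and 80% of the W330R-R181E list. Over all genes 1119 were called higher in all 3, out of 2148, 1981 and 1869 called higher in WT, W330R and W330R-R181E. These 1119 are 7.71% of all 14520 tested genes, a share to set beside 12 of the 38 tested members and not beside the list shares. The 12 members were Pcdhb10, Pcdhb11, Pcdhb12, Pcdhb14, Pcdhb16, Pcdhb17, Pcdhb20, Pcdhb22, Pcdhga1, Pcdhga6, Pcdhgb7 and Pcdhgc3. A further 12 were called in 1 or 2 genotypes, and 34 of the 38 had a positive difference in all 3. Over all 14520 genes 7407, 7399 and 7144 had a positive difference in WT, W330R and W330R-R181E. How many genes were positive in all 3, or called in 1 or 2 genotypes, was not counted.

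Pcdhb11 had one of the steepest rises. WT libraries went from 5.29 and 3.74 CPM at day 2 to 16.5 and 13.9 at day 6 (log2 difference 1.76 ± 0.28, adjusted p = 0.000612), W330R libraries from 2.94 and 4.34 to 10.8 and 12.5 CPM (1.67 ± 0.28, adjusted p = 0.00108), and W330R-R181E libraries from 3.37 and 2.62 to 10.5 and 10.8 CPM (1.84 ± 0.29, adjusted p = 0.000831). Pcdhga6 rose from 6.34 and 5.80 to 14.6 and 24.4 CPM in WT (1.69 ± 0.28), from 4.81 and 6.51 to 18.6 and 18.8 CPM in W330R (1.72 ± 0.28) and from 5.58 and 3.47 to 13.2 and 10.6 CPM in W330R-R181E (1.41 ± 0.29). Pcdhgc3 rose by 0.78 ± 0.20, 0.79 ± 0.20 and 0.78 ± 0.20 on the log2 scale in WT, W330R and W330R-R181E, with adjusted p = 0.0119, 0.0117 and 0.0148. Its W330R-R181E libraries were at 573 and 338 CPM at day 2, 660 and 566 at day 4 and 819 and 743 at day 6. The rise was thus of similar size in the 3 genotypes for these genes, while no test of the difference between genotypes was made.

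Pcdhb14, at 12.006 and 11.9 CPM at day 2 and 23.4 and 24.4 CPM at day 6 in WT, and Pcdhb22, at 8.68 and 6.49 and then 13.8 and 15.3 CPM, both rose in each genotype. The log2 differences were 1.00 ± 0.20, 0.94 ± 0.20 and 0.80 ± 0.20 for Pcdhb14 and 0.94 ± 0.22, 0.69 ± 0.22 and 0.73 ± 0.23 for Pcdhb22, in the order WT, W330R, W330R-R181E. Pcdhga10 was called in WT from very few reads: both day 2 libraries were at 0, and day 6 was at least 1.58-fold higher, taken against 3 counts per library. Pcdhgc4 went the other way in mean, from 36.7 to 17.3 CPM in WT and from 69.8 to 32.0 CPM in W330R, and did not pass the test.

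As sums, the beta level rose 2.19-fold in WT, 1.99-fold in W330R and 1.84-fold in W330R-R181E from day 2 to day 6, and the gamma level 1.66-fold, 1.64-fold and 1.67-fold, in each case without overlap between the days. Without Pcdhgc3 the gamma level rose 1.46-fold, 1.30-fold and 1.49-fold, and the W330R libraries of the days overlapped. Single libraries decided part of the counts. The WT count of 18 fell to 10 without WT day 2 replicate 2. The W330R count of 20 fell to 5 without W330R day 2 replicate 1, to 12 without W330R day 6 replicate 1 and to 11 without W330R day 6 replicate 2. The W330R-R181E count of 15 fell to 3 without W330R-R181E day 2 replicate 2 and to 7 without W330R-R181E day 6 replicate 2. With only the 4 libraries of a comparison in the fit, the counts were 4 in WT, 17 in W330R and 0 in W330R-R181E, where 10 members had an unadjusted p under 0.05 and DESeq2 on all libraries called 18. Those smaller fits called 1030, 3856 and 80 of all genes.

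**Figure D5:**
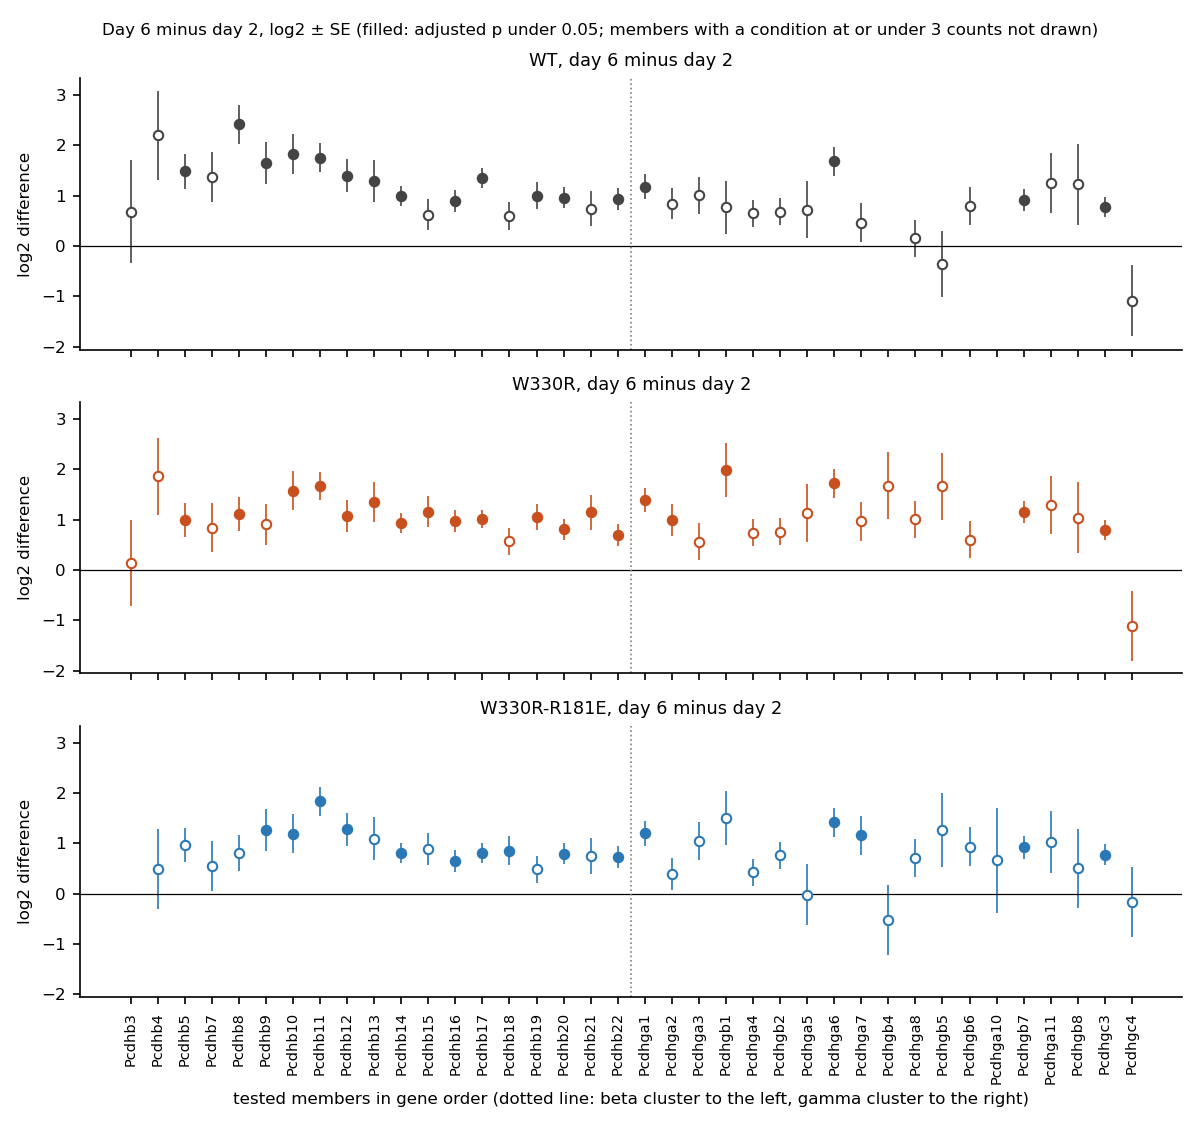
Log2 differences ± SE (y axes) between day 6 and day 2 for the tested members in gene order (x axis), in a panel for each genotype. Filled points passed an adjusted p of 0.05, members with a condition at or under 3 counts in each library are not drawn, and all filled points lie above 0.

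The step from undifferentiated cells to day 2 was mixed. In WT 10 members were higher at day 2 and 3 were lower, where 50.9% of all genes were called, 26.5% higher and 24.4% lower, and in W330R 8 were higher and 9 lower (25.1% and 23% of all genes). Among the higher genes in both were Pcdhga4, with log2 differences of 3.13 ± 0.30 in WT and 2.26 ± 0.30 in W330R, Pcdhgb2 (1.32 ± 0.28 and 1.34 ± 0.29), Pcdhb9, Pcdhb11, Pcdhb12 and Pcdhgc4. The level of Pcdhga4 was 1.41 and 1.29 CPM in undifferentiated WT and 1.31 and 1.73 CPM in undifferentiated W330R cells. Pcdhga7 was also called higher in both, from 2 counts in each undifferentiated W330R library, so no fold is given for it.

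Among the lower genes in both were Pcdhgb7, Pcdhb16 and Pcdhgc3, which were among the members that rose again from day 2 to day 6. Both steps use the same day 2 libraries, so the fall and the rise are not independent of each other. Pcdhgb7 fell from 38.7 and 42.9 to 18.6 and 18.6 CPM in WT (log2 difference -1.13 ± 0.22, adjusted p = 0.000764) and from 45.8 and 42.6 to 17.2 and 24.4 CPM in W330R (-1.09 ± 0.22, adjusted p = 0.00117). Pcdhgc3 fell by 0.59 ± 0.20 in WT and 0.84 ± 0.20 in W330R on the log2 scale (adjusted p = 0.0266 and 0.00372). Pcdhb16 fell by 0.55 ± 0.22 and 1.07 ± 0.22. The naming of the undifferentiated columns, given above, moves with this step.

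The W330R effect itself changed between undifferentiated and differentiating cells for 1 of the 38 tested members, Pcdhga2, where 6.74% of all genes were called, 3.82% with a higher and 2.91% with a lower effect at days 2 to 6. Its level was 1.14 and 1.07 CPM in WT and 2.37 and 1.85 CPM in W330R before differentiation. At days 2, 4 and 6 it was 4.91 and 5.76, 5.56 and 7.64, and 8.22 and 10.9 CPM in WT, and 2.41 and 3.39, 3.75 and 6.85, and 5.95 and 5.58 CPM in W330R. W330R was thus above WT before differentiation and below it at day 2 and day 6, with overlap at day 4, and the log2 difference of the 2 effects was -1.58 ± 0.40 (adjusted p = 0.031). The call was lost in 9 of 16 fits that left out a library (both WT and both W330R undifferentiated libraries, WT replicate 2 of days 2, 4 and 6, and both W330R libraries of day 6).

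Protocadherins outside the clusters were also measured. Of 12 non-clustered protocadherin genes 7 were tested. In W330R against WT 3 were higher and 0 lower, the adhesion genes Pcdh10 (log2 difference 1.17), Pcdh18 (0.52) and Pcdh19 (0.75), with adjusted p of 0.033, 0.00862 and 0.0347. Over all genes 11.2% were called higher and 11.8% lower there. In W330R-R181E against W330R 3 were lower and 0 higher, Pcdh9 (-2.42, adjusted p = 6.41e-05), Pcdh18 (-0.84, adjusted p = 0.00137) and Pcdh19 (-1.07, adjusted p = 0.0166), and against WT Pcdh9 was lower (-1.78, adjusted p = 0.00262). Over all genes 9.36% were called lower against W330R and 5.12% against WT. Pcdh9 was at 1.44 to 7.51 CPM in the W330R and 0.347 to 1.63 CPM in the W330R-R181E libraries of days 2 to 6.

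Few known regulators of promoter choice were called between genotypes. Of 17 with a row, all tested, 1 was higher in W330R than in WT over the 4 stages, Wiz, a CTCF-associated zinc finger protein (log2 difference 0.24, adjusted p = 0.0122), and 0 were lower. Over all genes 11.2% were called higher and 11.8% lower in that comparison. In W330R-R181E against W330R, Setdb1, a histone methyltransferase, was higher (0.18, adjusted p = 0.0452) and Pds5b, a cohesin regulator, was lower (-0.54, adjusted p = 0.0381), where 7.87% of all genes were called higher and 9.36% lower. Smc3, a cohesin subunit, differed by 0.15 between W330R and WT (adjusted p = 0.063). Ctcf and Smchd1 were called in none of the 3 averaged comparisons. Over time more were called: from undifferentiated cells to day 2, 1 regulator was higher and 9 were lower in WT, and 1 was higher and 11 were lower in W330R, with median log2 differences of -0.48 in both and the shares of all genes given above for that step. The maintenance methyltransferase gene Dnmt1 was among the lower ones (-2.14 in WT and -1.89 in W330R) and was called higher at day 6 than at day 2 in all 3 genotypes (0.72, 0.92 and 0.69 in WT, W330R and W330R-R181E).

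Among 13 tested genes whose products bind or act downstream of clustered protocadherin tails, 3 were higher and 1 was lower in W330R than in WT. Over all genes 11.2% were called higher and 11.8% lower, and the same shares apply to the genes beside or inside the clusters below. Axin1 (0.25), the Wnt receptor Ryk (0.34) and the actin regulator Wasf2 (0.38) were higher and the focal adhesion kinase gene Ptk2 (-0.22) was lower, with adjusted p from 0.00213 to 0.0188. In W330R-R181E Axin1 (-0.22, adjusted p = 0.0359) and Ryk (-0.45, adjusted p = 0.000829) were lower than in W330R. Of 12 tested genes beside or inside the clusters 1 was higher in W330R than in WT, Fchsd1 (0.52, adjusted p = 0.00252), and 2 were lower, the histidyl-tRNA synthetase gene Hars (-0.28) and the respiratory chain gene Ndufa2 (-0.57), with adjusted p = 0.024 and 0.0171. Fchsd1 was lower in W330R-R181E than in W330R (-0.52, adjusted p = 0.00634), and Hars2 lower than in WT (-0.36, adjusted p = 0.0167). In W330R-R181E 9.36% of all genes were called lower than in W330R and 5.12% lower than in WT.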

How the data were processed

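Total RNA from C3H 10T1/2 cells was sequenced from 22 libraries (NEBNext Ultra II), and the authors deposited raw read counts per gene. Their processing notes name kallisto, DESeq2 1.40 and GRCm39 without a role. Strand setting and annotation are not given in the sources used here. Libraries were grouped by the labels. Genes were filtered with filterByExpr (minimum count 10, minimum total 15) and tested with edgeR 4.0.16 (TMM scaling, quasi-likelihood F-test, all 22 libraries, 1 coefficient per condition, 13 contrasts, no covariate), with Benjamini-Hochberg adjustment over 14520 genes. Calls were made at an adjusted p under 0.05. The method was tested on simulated data. Alternatives were RLE scaling, no filter, a mean CPM filter, a replicate block, only the conditions of a contrast, DESeq2 1.42.0, each library left out in turn, and days 2 to 6 alone. Members and lists were chosen with earlier results of these data known. Values by library are given for the 4 highest members of each cluster and for members called in an averaged genotype comparison, and for other lists up to 4 genes with the smallest adjusted p. Gene order came from RefSeq GRCm38.p6 and transcript lengths from GENCODE M21, whose build differs from that of the counts, so no coordinates are given.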

Additional observations from a re-analysis of the deposited data

Results flagged for a closer look

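Pcdhga2 stood out because the W330R effect differed between undifferentiated and differentiating cells. The log2 difference between W330R and WT at days 2 to 6 minus that in undifferentiated cells was -1.58 (SE 0.40, edgeR adjusted p = 0.031), tested as an interaction over all 22 libraries. The difference was 0.94 in undifferentiated cells and -0.88, -0.31 and -0.73 at days 2, 4 and 6, none of which passed the test alone. A further 10 members had an unadjusted p under 0.05 in this interaction, all with a lower effect at the later days, where 3066 of 14520 genes had one, 1654 with a higher and 1412 with a lower effect.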

How the results depend on the processing

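With only the libraries of a comparison in the fit, the members called were 9 rather than 0 for W330R against WT in undifferentiated cells, 0 rather than 1 at day 2, 2 rather than 4 for W330R-R181E against WT, and 4 rather than 18 and 0 rather than 15 for day 6 against day 2 in WT and W330R-R181E. Over all genes these fits called, in the same order, 4194 rather than 254, 0 rather than 445, 163 rather than 1390, 1030 rather than 3862 and 80 rather than 3369. DESeq2 called 4 in undifferentiated cells, 1 at day 4 rather than 0, and 2 rather than 1 in the interaction, and without the filter the day 2 and interaction counts were 0 and 0. Over all genes DESeq2 called 528 rather than 254, 1700 rather than 891 and 1532 rather than 978. Without the filter the counts over all genes were 564 rather than 445 and 907 rather than 978. The cause was not tested. Leaving out each library in turn gave 4 to 9 for W330R against WT over 4 stages, 0 to 0 in undifferentiated cells, at day 4 and at day 6, 0 to 1 at day 2, 5 to 9 for W330R-R181E against W330R, 2 to 5 against WT, 10 to 19, 5 to 21 and 3 to 12 for day 6 against day 2 in WT, W330R and W330R-R181E, 10 to 13 and 12 to 17 for day 2 against undifferentiated cells in WT and W330R, and 0 to 2 for the interaction. Where an arm was left with 1 library, it was assumed to vary like the others. Of 391 comparisons of the 64 named values past the threshold with other settings, 344 kept their call, 47 lost it and 0 reversed, and of 440 with a library left out 313 kept it, 127 lost it and 0 reversed.

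With replicate number as a block, the counts were 10, 0, 1, 0, 0, 9, 5, 23, 23, 18, 13, 18 and 1, against 7, 0, 1, 0, 0, 7, 4, 18, 20, 15, 13, 17 and 1 without it, for W330R against WT over 4 stages, undifferentiated, day 2, day 4 and day 6, W330R-R181E against W330R and against WT, day 6 against day 2 in WT, W330R and W330R-R181E, day 2 against undifferentiated cells in WT and W330R, and the interaction. The 10 were 9 higher and 1 lower, with Pcdhb9 and Pcdhgc4 added as higher and Pcdhga4 as lower. Calls over all genes also rose with the block in each of these comparisons, from 3329 to 4092 in the first. Same-numbered libraries deviated together (correlation over 0.1) in 27 of 55 pairs of conditions, from -0.0665 to 0.534, so the numbers were not taken as a pairing of all libraries. All 27 lay among the 36 pairs of days 2 to 6, with 0 of the 19 pairs that hold an undifferentiated condition, and 9 of 10 pairs at the same stage were over 0.1, a hint from the data of libraries that share a number at days 2 to 6, which the labels do not state. Plain library totals moved the median of all genes by 0.11 on the log2 scale for W330R against WT, and by 0.12 to 0.15 for day 6 against day 2. The averaged count of 7 higher became 3 higher and 2 lower over days 2 to 6 alone, an alternative chosen after seeing the data.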
